A study of Mus musculus with 8 samples.

Results

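The AP-1, Myc and immediate early factors were followed as a group of 10 genes, *Fos*, *Fosb*, *Fosl1*, *Fosl2*, *Jun*, *Junb*, *Jund*, *Egr1*, *Myc* and *Ier2*, taken by symbol from the 41325 gene symbols listed in each library. All 10 symbols were found, and 9 of them, all but *Fosb*, passed the filter on low values, an RPKM over 1 in any library, as did 11513 genes overall. RPKM is a read count scaled by exon length and library size, so that levels of different genes can be set side by side. The cells were C3H10T1/2, a mouse mesenchymal stem cell (MSC) line, as 4 lines: shControl (given as WT in the labels), shKDM4D, shNFIB and shMLL1, the last 3 carrying a stable shRNA against the histone demethylase KDM4D, the transcription factor NFIB or the histone methyltransferase MLL1. All 4 lines were sampled on days 0 and 5 of adipogenic induction, and each of the 8 conditions gave 1 library. Where 4 values follow each other without names, they are in the order shControl, shKDM4D, shNFIB, shMLL1. Day 0 was post-confluent culture before the hormone mix, and day 5 came after insulin, dexamethasone and isobutylmethylxanthine, then insulin alone, then serum medium, so day and medium cannot be told apart. The knockdown cells were clones selected with puromycin from transfected cultures, and the labels do not say which clone of a target was sequenced.

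AP-1 is a dimer of a Jun protein with a Fos protein or with another Jun protein, held together by a leucine zipper, and it binds short sites in promoters and enhancers. *Fos*, *Fosb*, *Jun*, *Junb*, *Egr1* and *Ier2* are immediate early genes, which are transcribed within minutes of a growth factor, cyclic AMP or stress signal without new protein synthesis, and their mRNAs are short-lived. *Fosl1* and *Fosl2* encode the Fos relatives Fra-1 and Fra-2, which lack the strong activation domain of c-Fos, and *Myc* encodes the growth and ribosome biogenesis factor c-Myc. In preadipocytes the hormone mix is known to give an early wave of *Fos*, *Jun*, *Egr* and *Myc* transcripts within hours, which neither day sampled here covers.

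The stretch just upstream of the start site of *Fos*, *Fosb*, *Jun* and *Junb* is shown because these genes are classical targets of cyclic AMP and growth factor signals, and isobutylmethylxanthine raises cyclic AMP. The sequences are from the RefSeq promoter table of GRCm38.p6, which matched 6 of the 10 genes (these 4, *Fosl2* and *Jund*; *Fosl1*, *Egr1*, *Myc* and *Ier2* were not matched). Each runs 5′ to 3′ on the strand of the gene from base -150 to base -11, and the capitals mark TGACG, the core of a cyclic AMP response element, or TGACNTCA, the AP-1 and CRE-like form with an open base in its middle.
Fos (chr12:85473740-85473879, plus strand): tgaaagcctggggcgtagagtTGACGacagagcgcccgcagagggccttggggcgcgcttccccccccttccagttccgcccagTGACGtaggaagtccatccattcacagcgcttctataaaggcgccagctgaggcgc
Fosb (chr7:19310056-19310195, minus strand): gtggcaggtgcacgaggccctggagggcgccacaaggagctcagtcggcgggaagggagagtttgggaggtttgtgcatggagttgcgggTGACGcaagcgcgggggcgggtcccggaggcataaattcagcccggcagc
Jun (chr4:95052233-95052372, minus strand): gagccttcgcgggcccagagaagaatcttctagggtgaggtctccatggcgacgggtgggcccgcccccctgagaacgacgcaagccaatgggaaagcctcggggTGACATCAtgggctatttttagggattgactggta
Junb (chr8:84978759-84978898, minus strand): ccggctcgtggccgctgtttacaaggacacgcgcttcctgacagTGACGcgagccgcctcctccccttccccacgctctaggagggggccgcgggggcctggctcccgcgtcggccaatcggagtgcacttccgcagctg
The TGACG letters lay at -129 to -125 and -66 to -62 in *Fos*, at -60 to -56 in *Fosb* and at -106 to -102 in *Junb*, and TGACATCA lay at -45 to -38 in *Jun*. Searched on both strands of the 250 bases upstream of 32851 promoters, TGACG was present in 17.8% and in 3 of the 6 matched genes, and TGACNTCA was present in 7.49% and in 1 of 6. A TGACNTCA site with G at its open base also holds the shorter letters. The AP-1 site TGANTCA (6.75% of promoters), the E-box CACGTG (6.02%) and the CArG box bound by serum response factor (1.47%) had no match in any of the 6 windows, and TATAAA on the gene strand (7.59%) was present in *Fos* at -33 to -28. These matches describe letters only, and their use in these cells was not measured. Sites further upstream than 250 bases were not searched, so a gene without a match may still have such a site. The windows follow the RefSeq starts. For *Jund* bases -150 to -11 were at chr8:70697589-70697728, upstream of the start of the gene as counted (chr8:70698949), and the *Fosl2* stretch lay inside the counted gene.

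The libraries held between 15842222 and 38202579 mapped reads, as obtained from the steps of the RPKM values, and the number of reads behind each level follows from them. Intervals are exact 95% intervals for counting error only. With 1 library per condition there is no estimate of the spread between cultures, no p-value is given for a ratio of 2 libraries, and "past 2-fold" means a log2 ratio of RPKM over 1 or under -1. The knockdowns were visible for *Nfib* (log2 ratio to shControl -2.10 at day 0 and -2.33 at day 5) and for *Kmt2a*, which encodes MLL1 (-1.37 and -1.70). *Kdm4d* had 2 reads in shControl and 1 read in shKDM4D at day 0, and 13 and 4 reads at day 5 (-1.86, interval -3.94 to -0.17), so its knockdown was not detectable at day 0 at this depth. The summed RPKM of 9 mesenchymal markers was between 2185 and 2978 with at least 8 of them over an RPKM of 1 in every library, but single markers moved. *Thy1* was 25.0 and 22.6 in shControl and 11.8 and 11.1 in shMLL1 at days 0 and 5, against 0.0171 and 0.139 in shKDM4D and 0.0179 and 0.0632 in shNFIB. *Pdgfra* went from 13.4 to 70.8, 15.0 to 50.5, 13.9 to 35.7 and 12.9 to 32.0 over the 4 lines, and *Ly6a* from 172 to 136, 191 to 109, 90.6 to 340 and 81.5 to 927. The summed RPKM of 7 adipocyte markers moved from 10.9 to 777 in shControl, from 7.42 to 38.6 in shKDM4D, from 7.40 to 12.0 in shNFIB and from 4.09 to 12.3 in shMLL1, with *Plin1* or *Cidec* or both at 0 in every day 0 library. Markers of other cells stayed low: the 4 haematopoietic markers summed to 0.535 to 1.66, the 3 endothelial markers to 0 to 0.147 and the 4 epithelial markers to 0.553 to 1.81, with *Epcam* at 0 in all 8 libraries and *Ptprc* or *Adgre1* at 0 in each. The adipocyte markers and these mesenchymal markers thus move with the day and the line, and their part in the results on the 10 genes was not tested. In these bulk libraries fewer cells of a type and less RNA per cell cannot be told apart.

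**Figure D1:**
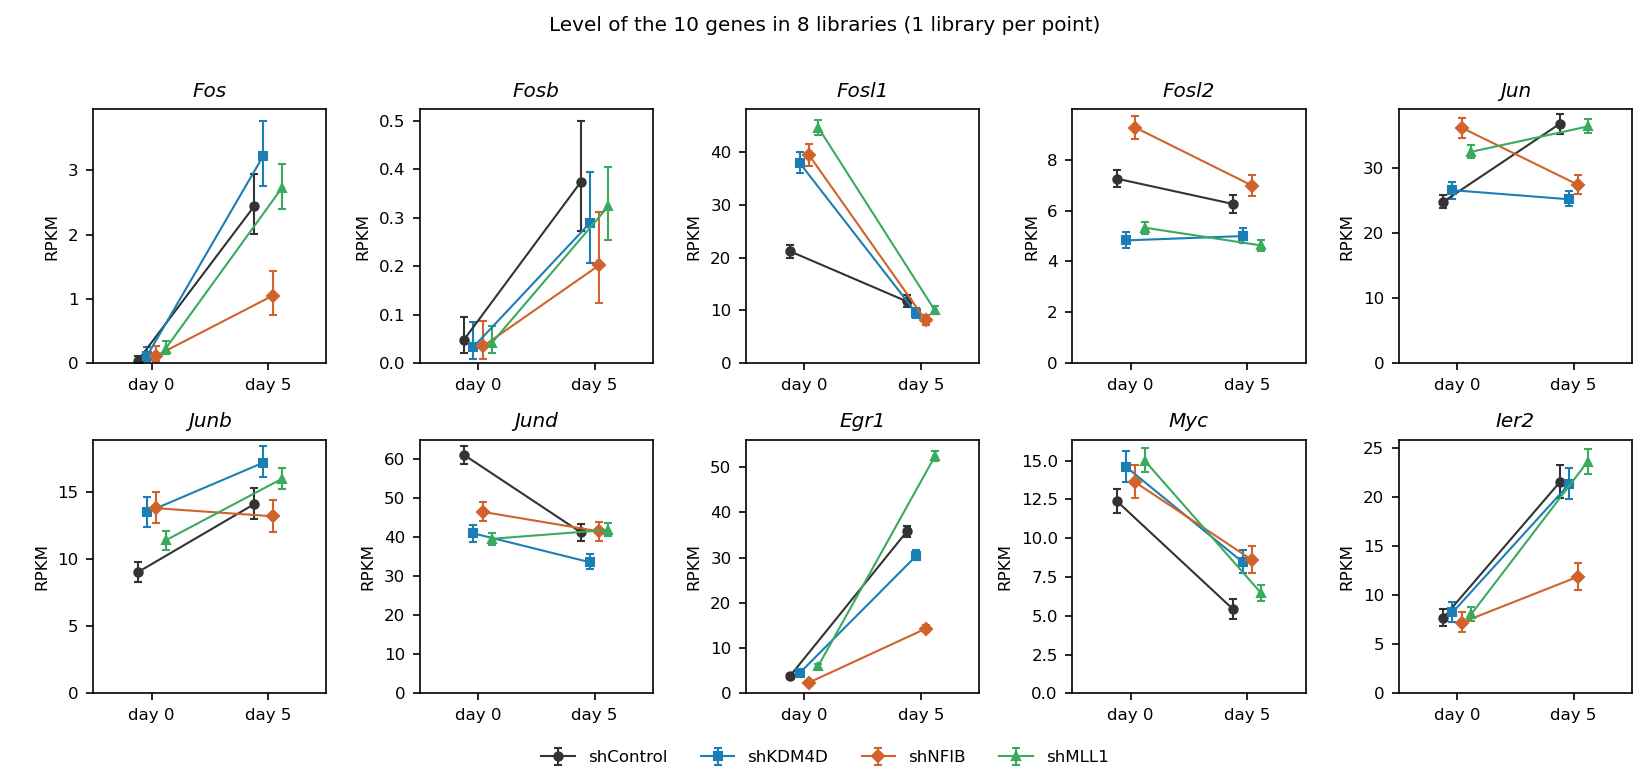
RPKM of each of the 10 genes (vertical axis, starting at 0, a scale of its own per gene) at day 0 and day 5 in the 4 lines, 1 library per point, with exact 95% Poisson intervals for counting error. *Fos*, *Fosb*, *Egr1* and *Ier2* were higher at day 5 in each line and *Fosl1* and *Myc* lower, with shNFIB the lowest line at day 5 for *Fos*, *Fosb*, *Egr1* and *Ier2*.

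*Fos*, *Fosb*, *Egr1* and *Ier2* were higher at day 5 than at day 0 in each line, while *Fosl1* and *Myc* were lower. In shControl cells 3 of the 9 expressed genes of the group, *Fos*, *Egr1* and *Ier2*, were more than 2-fold higher at day 5, against 13.0% of all expressed genes, and 1, *Myc*, was more than 2-fold lower, against 8.56%. The counts were 3 higher (background 12.8%) and 1 lower (8.44%) in shKDM4D cells, 2 higher (12.6%) and 1 lower (4.96%) in shNFIB cells, and 3 higher (20.4%) and 2 lower (6.89%) in shMLL1 cells. *Fos* and *Egr1* were past 2-fold higher in all 4 lines and *Ier2* in every line but shNFIB, while the gene past 2-fold lower was *Fosl1* in shKDM4D and shNFIB and both *Fosl1* and *Myc* in shMLL1. *Fos* passed the filter on low values only through its day 5 libraries, so its day 5 call is a description and adds no weight to these counts. Over the 9 genes the median was 0.57 (log2) for shControl, 0.05 for shKDM4D, -0.16 for shNFIB and 0.16 for shMLL1, with medians over all expressed genes of 0.03, 0.03, 0.10 and 0.17. The share of reads from the rRNA-like genes *AY036118* and *CT010467.1* also moved with the day, from 7.95% to 10.5% at day 0 to between 3.07% and 3.62% at day 5. Leaving those reads out changed none of these counts.

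The lines were also taken as 4 pairs, and the day difference was fitted by limma on log2(RPKM + 0.1) over all expressed genes with the line as a block. The error is then the spread of the change between lines that differ in genotype, not between cultures of 1 line. *Egr1* was higher at day 5 by 2.87 ± 0.14 on the log2 scale (SE, limma adjusted p = 0.00102), *Fos* by 3.45 ± 0.33 (adjusted p = 0.00252) and *Ier2* by 1.27 ± 0.17 (adjusted p = 0.00432), each in 4 of 4 lines. *Fosl1* fell by 1.81 ± 0.26 (adjusted p = 0.00538) and *Myc* by 0.96 ± 0.13 (adjusted p = 0.00502), also in 4 of 4 lines. *Fosl2*, *Jun*, *Junb* and *Jund* did not pass, with adjusted p-values from 0.0931 for *Junb* (0.35 ± 0.14) to 0.784 for *Jun* (0.06 ± 0.17). The 3 higher and 2 lower of 9 genes stand beside 28.1% and 20.0% of all expressed genes called in each direction. *Fos* entered the fit only through its day 5 libraries, so its p-value is a description and adds no weight to the 3. Its RPKM in shControl at day 0 (0.0319) was also below the 0.1 added. Without shNFIB *Junb* passed as well (0.49, limma adjusted p = 0.038).

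*Fos*, which encodes c-Fos, is located at chr12:85473890-85477273. It had an RPKM of 0.0319, 0.109, 0.114 and 0.223 at day 0 in shControl, shKDM4D, shNFIB and shMLL1 cells (2, 5, 5 and 20 reads), and of 2.44, 3.23, 1.05 and 2.73 at day 5 (111, 164, 39 and 245 reads). Every day 5 library was above every day 0 library. The log2 ratio of day 5 to day 0 was 6.26 (4.37 to 9.32) in shControl, where it rests on 2 reads at day 0, 4.89 (3.64 to 6.53) in shKDM4D, 3.20 (1.86 to 4.90) in shNFIB and 3.62 (2.96 to 4.35) in shMLL1. With 1 added to each RPKM these became 1.74, 1.93, 0.88 and 1.61. In shControl cells 105 of the 11513 expressed genes had a larger ratio. The order of the lines at day 5 was shNFIB, shControl, shMLL1 and shKDM4D, and neighbours differed beyond counting error only between shNFIB and shControl.

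*Fosb* (chr7:19302696-19310051, minus strand), which encodes another c-Fos-like activator, was the weakest gene of the group. Its RPKM was 0.0481, 0.0328, 0.0343 and 0.0419 at day 0 in shControl, shKDM4D, shNFIB and shMLL1 (between 4 and 10 reads) and 0.373, 0.289, 0.202 and 0.324 at day 5 (between 20 and 77 reads). It thus took the direction of *Fos* at a level that never reached 1. The day 5 to day 0 log2 ratio lay between 2.56 (0.98 to 4.57) in shNFIB and 3.14 (1.67 to 5.09) in shKDM4D, and it did not enter the counts because of the filter on low values. At day 5 only shNFIB differed from shControl beyond counting error (log2 ratio -0.88, -1.72 to -0.09).

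*Egr1*, a zinc finger factor induced through serum response factor and the ERK kinases, showed the same direction at a level well covered by reads. Its RPKM was 3.93, 4.51, 2.40 and 6.08 (shControl, shKDM4D, shNFIB and shMLL1) at day 0, and 35.8, 30.4, 14.3 and 52.4 at day 5. The log2 ratios of day 5 to day 0 were 3.19 (3.05 to 3.33), 2.76 (2.60 to 2.91), 2.58 (2.36 to 2.80) and 3.11 (3.01 to 3.20), which is a fold between 5.96 in shNFIB and 9.10 in shControl. On the RPKM scale the lowest line was shNFIB and the highest shMLL1 at both days, but at day 0 shKDM4D was the lowest as a ratio to *Gapdh* (-0.20 relative to shControl, against -0.07 for shNFIB). Between 279 genes in shControl and 530 genes in shMLL1 had a larger ratio.

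*Ier2* (chr8:84661331-84662852, minus strand) encodes a small nuclear protein of the immediate early class. At day 0 its RPKM was nearly level over the lines, at 7.67, 8.24, 7.22 and 8.05 (shControl, shKDM4D, shNFIB and shMLL1), with no neighbours in that order apart beyond counting error. At day 5 it was 21.5, 21.3, 11.9 and 23.6, so that shNFIB stood below the other 3 lines, whose neighbours in order did not differ beyond counting error. The day 5 to day 0 log2 ratio was 1.49 (1.29 to 1.69) in shControl, 1.37 (1.16 to 1.59) in shKDM4D, 0.72 (0.45 to 0.98) in shNFIB and 1.55 (1.40 to 1.70) in shMLL1. As a ratio to *Gapdh*, whose own log2 ratio of day 5 to day 0 was -0.03, -0.47, 0.56 and 0.12, the *Ier2* values were 1.52, 1.84, 0.15 and 1.43.

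**Figure D2:**
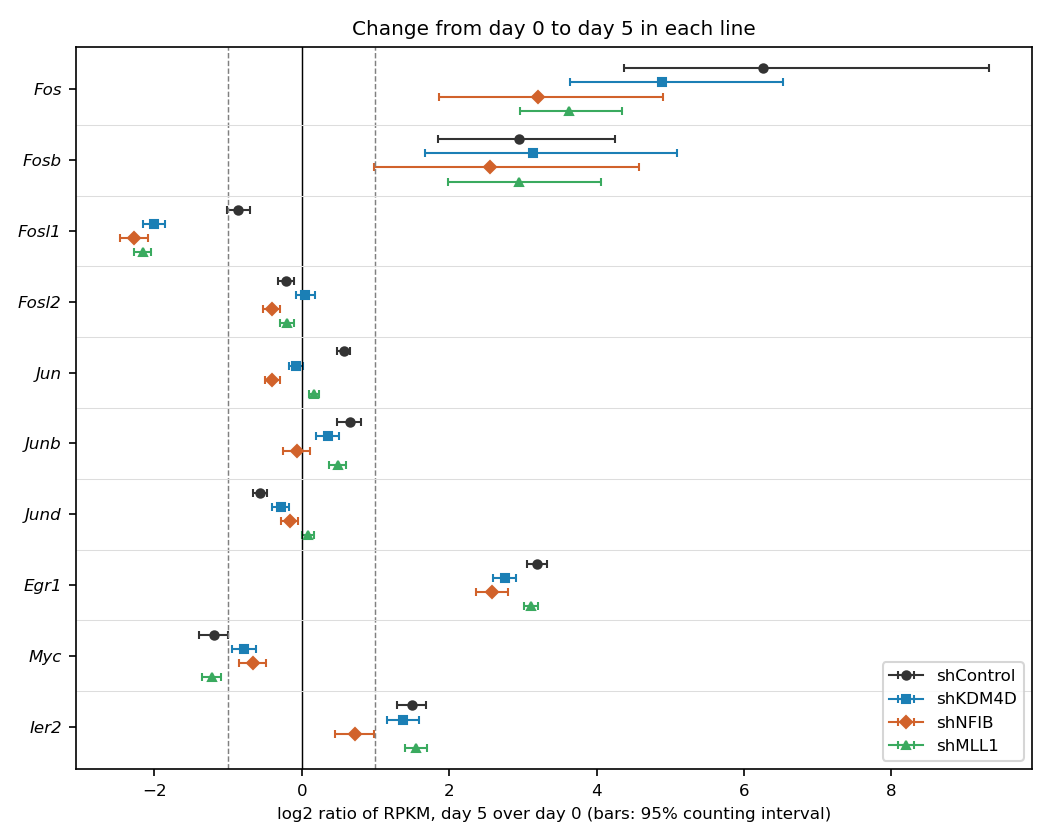
Log2 ratio of RPKM at day 5 over day 0 (horizontal axis) for each gene in the 4 lines, with exact 95% counting intervals and dashed lines at 2-fold. *Egr1* lies between 2.58 and 3.19 in all lines, *Fosl1* at -0.86 in shControl and between -2.28 and -2.00 in the knockdown lines, and *Jun* runs from -0.40 in shNFIB to 0.57 in shControl.

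*Fosl1* (chr19:5447547-5455946) moved the other way. Its RPKM at day 0 was 21.2, 38.0, 39.5 and 44.7 (shControl, shKDM4D, shNFIB and shMLL1), and at day 5 it was 11.7, 9.49, 8.14 and 10.0. The 3 knockdown lines were thus above shControl at day 0 and slightly below it at day 5. The log2 ratio of day 5 to day 0 was -0.86 (-1.01 to -0.70) in shControl against -2.00 (-2.16 to -1.85), -2.28 (-2.47 to -2.09) and -2.15 (-2.27 to -2.04) in shKDM4D, shNFIB and shMLL1, differences in change of -1.15, -1.42 and -1.30 from the same control pair. *Fosl1* shares 1163 exon bases with *Ccdc85b* on the opposite strand, which had an RPKM of 6.66 to 13.3, and the strand setting of the counting is not given in the sources used here, so the reads of these 2 genes may not be fully separated. *Fosl2* (chr5:32135801-32157842) varied less with the day than with the line. Its RPKM was 7.26, 4.83, 9.27 and 5.33 at day 0 and 6.26, 5.00, 6.99 and 4.63 at day 5 in shControl, shKDM4D, shNFIB and shMLL1. It was highest in shNFIB at each day, and its day 5 to day 0 log2 ratio was between -0.41 (-0.52 to -0.29) in shNFIB and 0.05 (-0.08 to 0.18) in shKDM4D.

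On the RPKM scale the Jun genes stayed within 2-fold in every comparison. *Jun* (chr4:95049034-95052222, minus strand), which encodes the most active Jun protein, had an RPKM of 24.8, 26.6, 36.2 and 32.5 at day 0 and of 36.8, 25.2, 27.4 and 36.4 at day 5 in shControl, shKDM4D, shNFIB and shMLL1. Its day 5 to day 0 log2 ratio was 0.57 (0.48 to 0.65) in shControl, -0.08 (-0.17 to 0.02) in shKDM4D, -0.40 (-0.50 to -0.30) in shNFIB and 0.16 (0.10 to 0.23) in shMLL1. The direction therefore differed between lines. Divided by *Gapdh*, the shKDM4D ratio became 0.39 and that of shNFIB -0.96.

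*Junb* (chr8:84974484-84978718, minus strand), whose product is a weaker activator than c-Jun, had an RPKM of 9.02, 13.5, 13.8 and 11.4 at day 0 and of 14.1, 17.2, 13.2 and 16.0 at day 5. The ratio was 0.65 (0.48 to 0.81) in shControl, 0.35 (0.20 to 0.50) in shKDM4D, -0.07 (-0.25 to 0.11) in shNFIB and 0.49 (0.37 to 0.60) in shMLL1 on the log2 scale. It was lowest in shControl at day 0, by 0.34 to 0.62 on the log2 scale against the knockdown lines. *Jund* (chr8:70698949-70700616) is broadly expressed and less inducible than the other two, and it had the highest RPKM of the group in most libraries: 61.1, 41.0, 46.5 and 39.6 at day 0 and 41.3, 33.6, 41.5 and 41.9 at day 5. The shControl library at day 0 was above the other 7. Its day 5 to day 0 log2 ratio was -0.57 (-0.66 to -0.47) in shControl, -0.28 (-0.40 to -0.17) in shKDM4D, -0.16 (-0.28 to -0.05) in shNFIB and 0.08 (0.00 to 0.16) in shMLL1. On the opposite strand *Jund* shares 877 exon bases with *Gm11175* (RPKM 4.27 to 11.4), *Junb* 173 bases with *Prdx2* (33.3 to 55.1) and *Jun* 232 bases with *Junos* (0.107 to 0.699).

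Summed by family, the Fos side changed in size and make-up and the Jun side did so less. The 4 Fos genes summed to an RPKM of 28.6, 43.0, 48.9 and 50.2 (shControl, shKDM4D, shNFIB and shMLL1) at day 0, and to 20.8, 18.0, 16.4 and 17.7 at day 5. *Fosl1* made up 74.3%, 88.4%, 80.8% and 88.9% of that sum at day 0 and 56.4%, 52.7%, 49.7% and 56.6% at day 5. *Fos* itself made up at most 0.443% at day 0, and 11.7%, 17.9%, 6.39% and 15.4% at day 5. The 3 Jun genes summed to between 76.1 and 96.5 in all 8 libraries, with *Jund* at 64.3% of the sum in shControl at day 0 and between 44.2% and 50.6% in the other 7 libraries. The ratio of the Fos sum to the Jun sum was 0.301, 0.531, 0.507 and 0.601 at day 0 and 0.226, 0.237, 0.199 and 0.188 at day 5, so the transcripts of the Jun genes outnumbered those of the Fos genes per kilobase in every library. These are mRNA levels, and dimers were not measured.

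**Figure D3:**
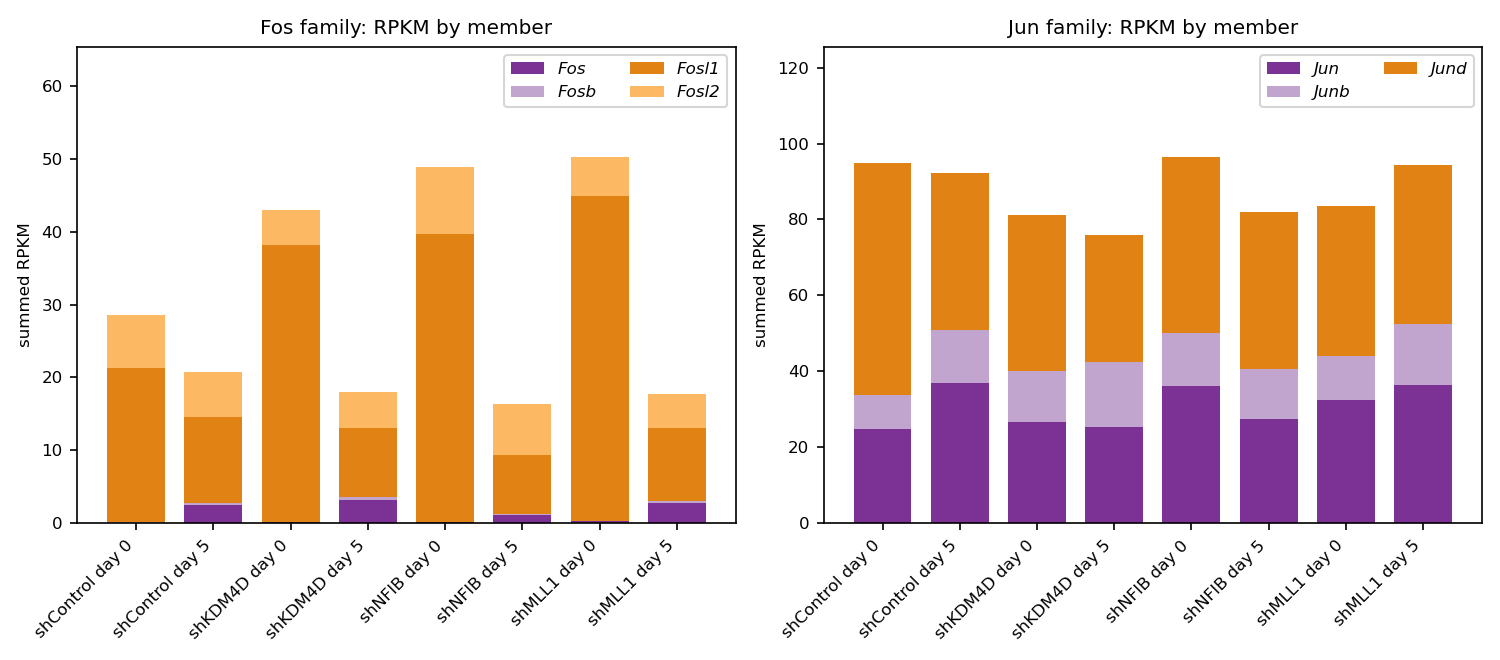
Summed RPKM (vertical axis) of the 4 Fos genes, left, and the 3 Jun genes, right, in each of the 8 libraries, with the share of each gene in colour. The Fos sum lies between 28.6 and 50.2 at day 0 and between 16.4 and 20.8 at day 5, most of it *Fosl1* at day 0, and the Jun sum lies between 76.1 and 96.5.

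*Myc* (chr15:61985391-61990374) was lower at day 5 in each line. Its RPKM was 12.4, 14.6, 13.6 and 15.0 (shControl, shKDM4D, shNFIB and shMLL1) at day 0, and 5.41, 8.46, 8.60 and 6.45 at day 5. All day 0 libraries were above all day 5 libraries. The day 5 to day 0 log2 ratio was -1.19 (-1.39 to -1.0) in shControl, -0.78 (-0.95 to -0.62) in shKDM4D, -0.66 (-0.85 to -0.48) in shNFIB and -1.22 (-1.35 to -1.09) in shMLL1. As a ratio to *Gapdh* the shKDM4D value was -0.32 and the shNFIB value -1.23. At day 5 the level in shKDM4D and shNFIB did not differ from each other beyond counting error (0.02, -0.18 to 0.22), and both were above shControl.

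The 3 knockdown lines were then each set against shControl at the same day, which means that the 3 ratios of a day share 1 control library. At day 0 the genes past 2-fold were few. In shKDM4D 1 of the 9 genes, *Fos*, was past 2-fold higher against 1.98% of all expressed genes and 0 were lower against 4.26%. In shNFIB the counts were 1, again *Fos*, against 2.95% and 0 against 6.05%, and in shMLL1 they were 2, *Fos* and *Fosl1*, against 1.67% and 0 against 7.43%. The *Fos* ratios rest on 2 control reads: the log2 ratio was 1.77 (-0.84 to 5.16) in shKDM4D, 1.84 (-0.78 to 5.23) in shNFIB and 2.80 (0.76 to 5.94) in shMLL1, and with 0.1 added to each RPKM the first 2 were no longer past 2-fold.

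The *Fosl1* ratios to shControl at day 0 were well covered by reads and close to 2-fold in each knockdown line. They were 0.84 (0.73 to 0.95) in shKDM4D, 0.90 (0.78 to 1.01) in shNFIB and 1.07 (0.98 to 1.17) in shMLL1. Of the 11513 expressed genes, 313, 418 and 171 had a larger ratio in these comparisons. *Junb* was also above shControl in each knockdown line (0.58, 0.62 and 0.34) and *Jund* below it (-0.58, -0.39 and -0.63). *Egr1* was lower in shNFIB (-0.71, -0.96 to -0.47) and higher in shMLL1 (0.63, 0.47 to 0.79), while *Myc* and *Ier2* were within 0.28 of shControl on the log2 scale in each line. Divided by *Gapdh*, which itself had a log2 ratio to shControl of 0.40, -0.64 and 0.21 at day 0, the median of all genes moved to -0.40, 0.67 and -0.28, the *Fosl1* ratios became 0.44, 1.54 and 0.86, those of *Junb* became 0.18, 1.26 and 0.13, and *Jund* in shNFIB turned to 0.25. The *Egr1* ratios became -0.20, -0.07 and 0.42, so the lower level in shNFIB was not kept on that scale. Those of *Myc* became -0.16, 0.78 and 0.07, and those of *Ier2* -0.30, 0.55 and -0.14.

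At day 5 *Fos*, *Fosb*, *Egr1* and *Ier2* were lowest in shNFIB, while *Jun* was lowest in shKDM4D and *Junb* in shNFIB had a log2 ratio to shControl of -0.10 (-0.28 to 0.07). In shNFIB 0 of 9 genes were past 2-fold higher against 5.54% of all expressed genes, and 2, *Fos* and *Egr1*, were past 2-fold lower against 5.67%. No gene of the 9 was past 2-fold in shKDM4D (background 1.88% higher and 4.57% lower) or in shMLL1 (5.25% higher and 4.02% lower). The log2 ratio of shNFIB to shControl was -1.22 (-1.79 to -0.68) for *Fos*, -1.32 (-1.43 to -1.22) for *Egr1* and -0.86 (-1.07 to -0.66) for *Ier2*. The same 3 genes gave 0.40 (0.05 to 0.76), -0.23 (-0.31 to -0.16) and -0.01 (-0.17 to 0.15) in shKDM4D, and 0.16 (-0.17 to 0.50), 0.55 (0.49 to 0.61) and 0.13 (-0.01 to 0.27) in shMLL1. As a ratio to *Gapdh* the shMLL1 values of *Fos* and *Egr1* were -0.20 and 0.19. Set directly against the other knockdown lines on the same day, shNFIB gave a log2 ratio to shMLL1 of -1.38 (-1.91 to -0.89) for *Fos*, -1.87 (-1.97 to -1.78) for *Egr1* and -0.99 (-1.18 to -0.81) for *Ier2*, and that of shKDM4D to shNFIB was 1.62 (1.11 to 2.17), 1.09 (0.99 to 1.19) and 0.85 (0.65 to 1.05) for the same genes. For *Fosb* these ratios were -0.68 (-1.47 to 0.05) and 0.52 (-0.30 to 1.37), neither beyond counting error.

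*Myc* was higher than in shControl at day 5 in shKDM4D (0.65, 0.43 to 0.86) and shNFIB (0.67, 0.44 to 0.90), and by less in shMLL1 (0.25, 0.05 to 0.46), where the direction turned to -0.10 as a ratio to *Gapdh*. *Fosl1* was slightly lower in each line (-0.31, -0.53 and -0.23 in shKDM4D, shNFIB and shMLL1), the reverse of day 0. *Jun* was lower in shKDM4D (-0.54, -0.63 to -0.45) and shNFIB (-0.42, -0.52 to -0.33) and at -0.01 (-0.09 to 0.06) in shMLL1.

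**Figure D4:**
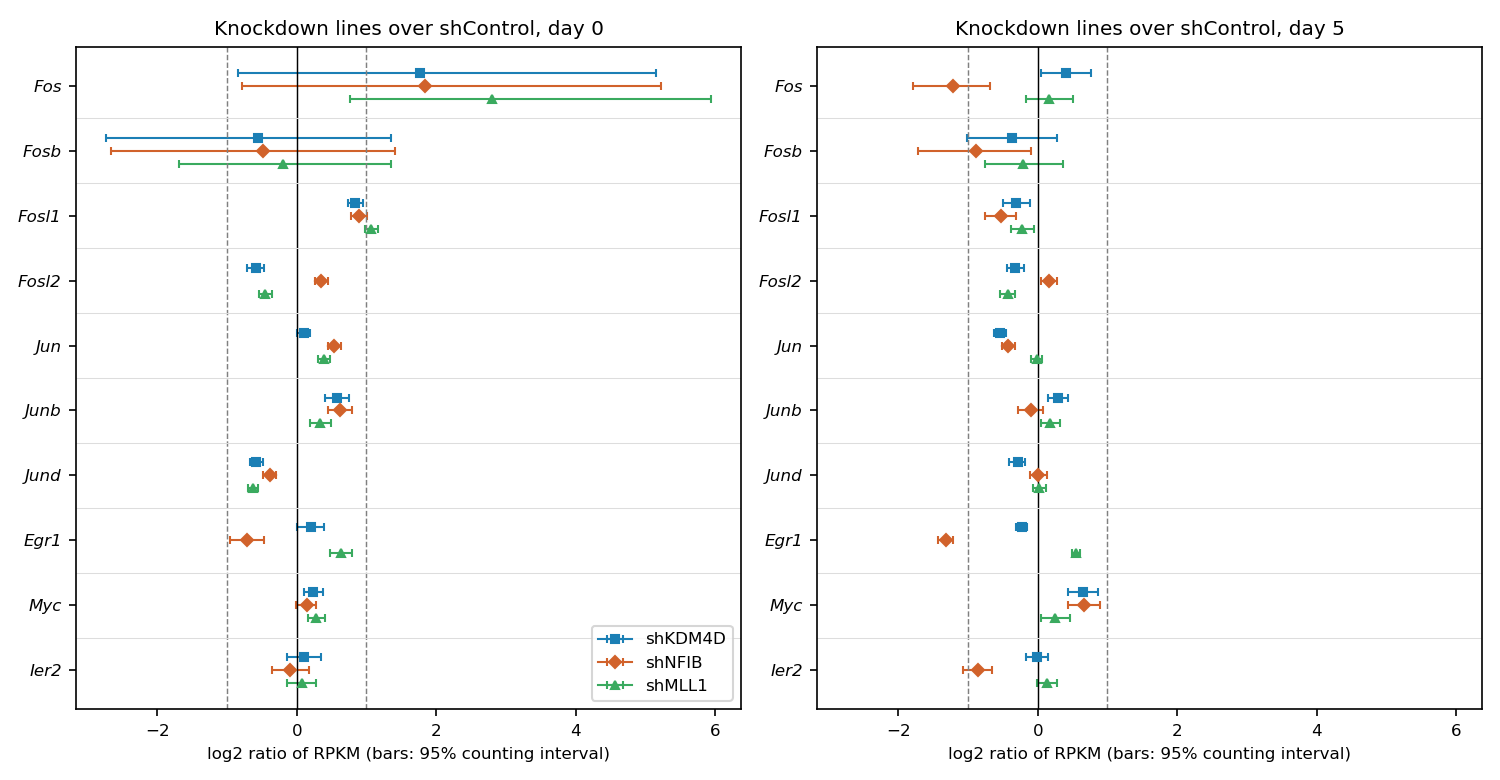
Log2 ratio of RPKM of each knockdown line over shControl (horizontal axis) at day 0, left, and day 5, right, with exact 95% counting intervals and dashed lines at 2-fold; each day has 1 shared control library. *Fosl1* lies between 0.84 and 1.07 at day 0, and at day 5 the shNFIB values of *Fos*, *Egr1* and *Ier2* lie between -1.32 and -0.86.

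The other genes of these pathways were counted over lists drawn from general knowledge. Of 24 further immediate early genes, 21 were expressed (all but *Egr4*, *Nr4a3* and *Csrnp1*), and 8 were past 2-fold higher at day 5 and 5 lower in shControl (against 13.0% and 8.56% of all expressed genes), 8 and 4 in shKDM4D (12.8% and 8.44%), 4 and 2 in shNFIB (12.6% and 4.96%), and 8 and 2 in shMLL1 (20.4% and 6.89%). Divided by *Gapdh*, the shNFIB counts became 2 and 8. Their median log2 ratio was 0.25, 0.29, -0.18 and 0.25, beside 0.03, 0.03, 0.10 and 0.17 for all expressed genes, so that the list moved in both directions. *Egr2* and *Arc* were under an RPKM of 1 in every day 0 library and passed the filter only through day 5. The higher calls of *Egr2* and *Arc* at day 5 thus add no weight to these counts. *Egr3*, a relative of *Egr1*, went from 0.494 to 4.05 in shControl, 0.465 to 4.55 in shKDM4D, 0.292 to 0.974 in shNFIB and 1.02 to 2.30 in shMLL1. *Arc*, a cytoskeletal immediate early gene best known from neurons, went from 0.430 to 2.44, 0.201 to 2.45, 0.245 to 0.496 and 0.582 to 1.25. At day 5 in shNFIB relative to shControl 2 genes of the list were past 2-fold higher (*Klf4* and *Ctgf*, against 5.54% of all genes) and 3 lower (*Egr3*, *Nr4a1* and *Arc*, against 5.67%), with log2 ratios of -2.06 (-2.45 to -1.68) for *Egr3* and -2.30 (-2.99 to -1.67) for *Arc*.

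*Atf3*, a stress-induced factor that can pair with Jun proteins, took an order of its own. Its RPKM at day 0 was 2.75, 0.784, 0.224 and 0.523 (shControl, shKDM4D, shNFIB and shMLL1), past 2-fold lower in each knockdown line, and at day 5 it was 1.22, 0.451, 1.76 and 3.20. The day 5 to day 0 log2 ratio was thus -1.17 (-1.65 to -0.70) in shControl, -0.80 (-1.66 to 0.03) in shKDM4D, and 2.97 (1.95 to 4.17) and 2.62 (2.15 to 3.12) in shNFIB and shMLL1. *Ctgf*, a matricellular gene of the same list, was lower at day 5 in shControl (16.4 to 6.91), shKDM4D (23.6 to 4.95) and shNFIB (47.9 to 20.9) and less so in shMLL1 (24.9 to 19.4).

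Among the transducers that act on these genes, serum response factor, its ternary complex partners, *Creb1* and the MAP kinases, 0 of 14 were past 2-fold in either direction in any of the 10 comparisons on the RPKM scale, in which from 1.67% to 20.4% of all expressed genes were past 2-fold in a direction. As a ratio to *Gapdh*, 4 were past 2-fold lower at day 5 in shNFIB, 2 lower at day 5 in shMLL1 and 4 higher in shNFIB than in shControl at day 0, and the 2 in shMLL1 were 2 with median-of-ratios scaling and 1 with quantile normalization. The feedback inhibitors of the MAP kinases, 10 expressed of 11, had 0 higher and 2 lower at day 5 in shControl, 0 and 4 in shKDM4D, 0 and 2 in shNFIB and 1 and 3 in shMLL1. Of all genes 13.0%, 12.8%, 12.6% and 20.4% were higher and 8.56%, 8.44%, 4.96% and 6.89% lower. The number of these inhibitors lower became 2, 1, 8 and 3 as a ratio to *Gapdh*. The 2 lower in every line on the RPKM scale were *Dusp4*, an ERK phosphatase, and *Spred2*, an inhibitor of Raf activation. *Dusp4* went from an RPKM of 7.41 to 2.38 in shControl, 9.00 to 0.523 in shKDM4D, 30.6 to 2.21 in shNFIB and 14.5 to 1.36 in shMLL1, and *Spred2* from 10.1 to 3.74, 10.3 to 4.53, 11.9 to 4.0 and 12.3 to 4.82. *Spry1*, another inhibitor of receptor signalling, was at 2.36, 2.68, 0.885 and 0.423 at day 0, already past 2-fold below shControl in shNFIB and shMLL1. At day 5 *Spry1* was at 3.61, 1.34, 0.695 and 3.52, past 2-fold below shControl in shKDM4D and shNFIB. It was then lowest in shNFIB (log2 ratio to shControl -2.38, -2.96 to -1.84). *Dusp6*, a phosphatase of ERK, had a log2 ratio of day 5 to day 0 of -1.10 (-1.44 to -0.76) in shKDM4D and -0.96 (-1.31 to -0.61) in shNFIB, beside 0.14 (-0.15 to 0.44) in shControl and -0.41 (-0.58 to -0.24) in shMLL1.

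Of 11 dimer partners and relatives of AP-1, 6 were expressed. *Maf*, a large Maf protein with its own leucine zipper, was the 1 past 2-fold between days on the RPKM scale, higher in each line. That is 1 of 6 higher, beside 13.0%, 12.8%, 12.6% and 20.4% of all expressed genes, and 0 lower, beside 8.56%, 8.44%, 4.96% and 6.89%. *Maf* passed the filter on low values only through its day 5 libraries, so its higher calls are a description and add no weight. Its RPKM went from 0.747 to 15.6 in shControl, 0.491 to 7.23 in shKDM4D, 0.637 to 2.84 in shNFIB and 0.629 to 4.51 in shMLL1. All 3 knockdown lines were past 2-fold below shControl at day 5, by log2 ratios of -1.11, -2.46 and -1.79. In each this was 1 of 6 genes lower, beside 4.57%, 5.67% and 4.02% of all expressed genes.

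For *Myc*, 9 of the 12 genes of its network were expressed. On the RPKM scale 2, 2, 1 and 3 of the 9 were past 2-fold higher at day 5, beside 13.0%, 12.8%, 12.6% and 20.4% of all expressed genes. The numbers lower were 0, 1, 0 and 0, beside 8.56%, 8.44%, 4.96% and 6.89%. *Mxd1*, a repressor that competes for the partner Max, was past 2-fold higher at day 5 in all lines on that scale. Its RPKM went from 0.908 to 3.01 in shControl, 0.731 to 1.98 in shKDM4D, 1.07 to 2.31 in shNFIB and 0.762 to 1.91 in shMLL1. In shNFIB *Mxd1* was not past 2-fold as a ratio to *Gapdh* or with quantile normalization, where the network had 0 genes higher. *Mxd4*, of the same family, went from 8.87 to 24.8, 8.07 to 25.1, 9.22 to 17.5 and 4.51 to 13.9, and *Mxi1* from 7.55 to 14.7, 10.4 to 16.5, 7.96 to 11.8 and 7.15 to 15.1. *Mxd3*, the family member tied to proliferation, took the direction of *Myc*, from 13.0 to 6.66, 20.4 to 9.33, 14.1 to 9.27 and 10.9 to 7.64. The network had 0 genes past 2-fold between a knockdown line and shControl at either day, where between 1.67% and 7.43% of all genes were past it in a direction; as a ratio to *Gapdh* it had 1 lower in shMLL1 at day 0 and 2 at day 5.

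Of 20 known target genes of *Myc*, all expressed, 0 were past 2-fold higher at day 5 in any line, beside 13.0%, 12.8%, 12.6% and 20.4% of all genes. The number past 2-fold lower was 10 in shControl (against 8.56% of all genes), 5 in shKDM4D (8.44%), 1 in shNFIB (4.96%) and 9 in shMLL1 (6.89%). The median log2 ratio was -1.06, -0.83, -0.33 and -0.89, against 0.03, 0.03, 0.10 and 0.17 for all expressed genes. On the scale of a ratio to *Gapdh* the numbers lower were 10, 1, 8 and 10 and the medians -1.03, -0.36, -0.90 and -1.0, so the order of shKDM4D and shNFIB turned with the scale. *Cad*, which encodes the enzyme of the first steps of pyrimidine synthesis, was the target past 2-fold lower in every line on the RPKM scale, from an RPKM of 6.04 to 2.11, 5.79 to 2.35, 6.39 to 2.99 and 8.43 to 3.11. *Fbl*, which encodes fibrillarin of the nucleolus, went from 16.7 to 6.37 in shControl and from 18.1 to 13.1 in shNFIB, and *Nop56*, its partner, from 30.6 to 13.5 and from 38.5 to 28.9. The transferrin receptor gene *Tfrc* was lower in 3 lines (log2 ratios of -1.40, -1.60 and -1.35) and at 0.13 (-0.02 to 0.27) in shNFIB, where it was already at 6.90 at day 0 against 17.9 in shControl. At day 5 the median of the list against shControl was 0.10, 0.49 and 0.49 (shKDM4D, shNFIB and shMLL1), with medians over all genes of 0.01, 0.09 and 0.07. In shNFIB 2 genes, *Nop56* and *Fbl*, were past 2-fold higher, beside 5.54% of all genes. That number became 1 with median-of-ratios scaling and 1 with quantile normalization. In shKDM4D and shMLL1 it was 0, beside 1.88% and 5.25%. At day 0 the list median was -0.06, -0.06 and 0.46, beside -0.00, 0.03 and -0.07 for all genes, so that the median in shMLL1 was above shControl before induction. In shMLL1 at day 0, 0 genes of the list were past 2-fold higher (1.67% of all genes) and 1 was lower (7.43%). As a ratio to *Gapdh* the medians were 0.14, 0.53 and 0.14 at day 5 and -0.46, 0.58 and 0.25 at day 0.

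**Figure D5:**
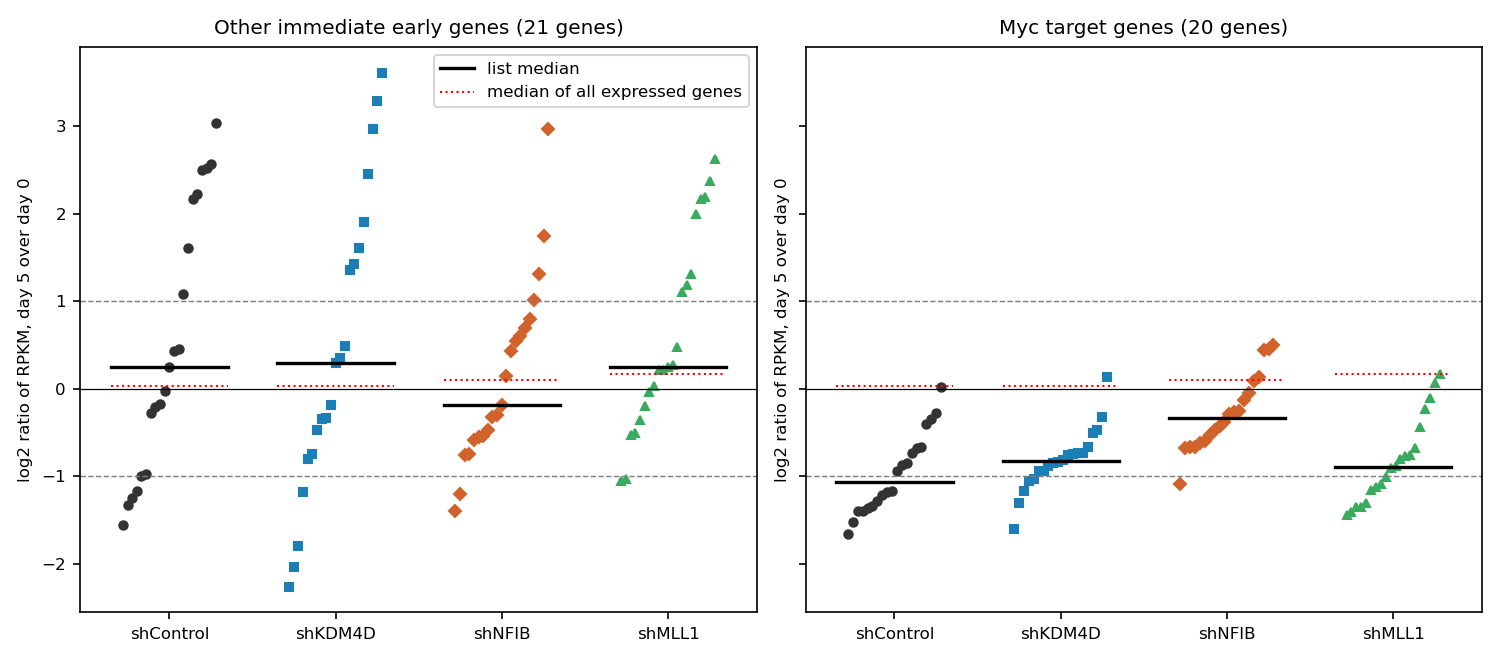
Log2 ratio of RPKM at day 5 over day 0 (vertical axis) for the 21 expressed further immediate early genes, left, and the 20 *Myc* target genes, right, in the 4 lines; each point is 1 gene, sorted within a line, black bars are list medians and red dotted bars the medians of all expressed genes. On this scale the target genes centre on -1.06 in shControl and -0.33 in shNFIB, and the immediate early genes spread to both sides of 0.

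Of 15 known AP-1 target genes 12 were expressed (not *Mmp9*, *Mmp10* and *Mmp13*), and they moved to both sides: 1 higher and 4 lower at day 5 in shControl (all genes 13.0% and 8.56%), 1 and 6 in shKDM4D (12.8% and 8.44%), 1 and 3 in shNFIB (12.6% and 4.96%) and 6 and 5 in shMLL1 (20.4% and 6.89%). Relative to *Gapdh* the counts were 1 and 4, 3 and 3, 1 and 6, and 5 and 5. *Mmp3*, which encodes the protease stromelysin, was higher in all lines, from an RPKM of 0.271 to 17.8, 0.625 to 5.01, 0.327 to 13.4 and 0.0291 to 1.27. It passed the filter only through its day 5 libraries, so its higher calls add no weight. On the RPKM scale *Mmp3* was the 1 higher in shControl, shKDM4D and shNFIB. *Hbegf*, an EGF receptor ligand, was past 2-fold lower in all lines, from 3.42 to 0.763, 3.49 to 1.29, 8.06 to 1.81 and 7.57 to 2.06, and none of its day 5 values reached a day 0 value. The cytokine gene *Il6* was highest in shNFIB at each day, at 2.69 and 1.56, and at 0.0464 and 0.0852 in shControl (3 and 4 reads). *Il6* passed the filter only through its shNFIB libraries, so its rank there is a description and adds no weight. Its lower call in shKDM4D (0.759 to 0.152) and its higher call in shMLL1 (0.119 to 0.702) were at an RPKM under 1.

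The genes whose pattern over the 8 libraries was most like that of each gene were searched among 6072 expressed genes that varied by over 2-fold, by Pearson's r of log2(RPKM + 0.1). For *Fos* these were *Gm3716* (r = 0.985), *Ror1* (0.979) and *Fbxo36* (0.977), and for *Egr1* they were *Mertk* (0.991), *Matn2* (0.989) and *Gas6* (0.987). For *Ier2* the search gave *Gm5860* (0.994), *Kdm7a* (0.991) and *Arhgap24* (0.989). *Gm3716* (RPKM 0.575 to 1.55) and *Gm5860* (0 to 1.34) only just passed the filter, so their r values lean on low levels and the added 0.1. *Fosl1* was followed most closely by *Cobll1* (0.981), the proliferation marker gene *Mki67* (0.980) and *Steap2* (0.977), and *Myc* by the replication helicase gene *Mcm4* (0.992), *Ranbp1* (0.986) and *Ints7* (0.985). These are descriptions over 8 libraries that fall into 2 days, and the highest of many values, so that any gene with a strong day difference of the same sign scores high. *Fosb*, *Fosl2* and the Jun genes were left out of the search, *Fosb* because it never reached an RPKM of 1 and the others because their levels varied by 2-fold or less.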

How the data were processed

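RNA was sequenced in 8 libraries, 4 lines at 2 days, and all were used. The authors prepared stranded libraries (SMARTer kit, HiSeq 2500), mapped the reads with CLC Genomics Workbench 11.0.1 to GRCm38 (mm10) and deposited RPKM values per gene; the annotation release and the strand setting are not given in the sources used here. Reads were recovered by multiplying each RPKM by its GENCODE M21 exon length: in the range from 1 to 1000 reads, 96.2% to 96.6% of the values were whole to within 0.02. *Ctgf* and *Cyr61* had no length under these symbols and no interval. Log2 ratios of RPKM carry exact 95% intervals (Clopper-Pearson on reads, scipy 1.17.1), checked on simulated data. PCR duplicates make them too narrow. Counts use genes over an RPKM of 1 in at least 1 library. No count test was run, since each condition has 1 library. A fit of the day over the 4 lines as pairs (limma 3.58.1, log2(RPKM + 0.1), Benjamini-Hochberg over 11513 genes, threshold 0.05) was added after seeing the data and tested on simulated data. All 10 genes are named. From each list at most 4 genes were named, those past 2-fold in the most comparisons, then by mean size. *Thy1*, which this rule picks, and *Egr2*, *Klf4* and *Nr4a1*, which it does not, were named after their values were seen. A further gene that this rule picks is not reported here. The genes and lists were chosen with earlier results of these data known. Alternatives were pseudocounts of 0.1 and 1, other filters, quantile, median-of-ratios and *Gapdh* scaling. One added after seeing the data leaves out rRNA-like reads.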

Additional observations from a re-analysis of the deposited data

Results flagged for a closer look

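2 of the Jun genes moved from day 0 to day 5 in opposite directions in a knockdown line and in shControl. *Jun* had a log2 ratio of day 5 to day 0 of -0.40 in shNFIB and 0.57 in shControl, with neither interval reaching 0. *Jund* had a ratio of 0.08 in shMLL1 and -0.57 in shControl; its shMLL1 value turned to -0.02 with quantile normalization, -0.08 with median-of-ratios scaling, and -0.03 both as a ratio to *Gapdh* and without the rRNA-like reads. With 1 library per condition the difference was not tested for either gene.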

How the results depend on the processing

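Each ratio of 2 libraries rests on 1 library per condition, so a library could be left out only from the fit over 4 line pairs. In that fit (limma) 3 genes were higher at day 5 and 2 lower, with the limit on *Fos* given above. Without each line in turn the numbers were 3 to 4 and 2 to 2, the 4 coming without shNFIB, and the same 3 and 2 genes were called without the line block, as a ratio to *Gapdh* and with a pseudocount of 1. Of the 100 log2 ratios of the 10 genes, 26 were past 2-fold. Of these, 2 were no longer so with 0.1 added to each RPKM, 9 with 1 added and 1 as a ratio to *Gapdh*, which brought 4 others past 2-fold; quantile normalization, median-of-ratios scaling and leaving out the rRNA-like reads changed none. Signs changed in 5 ratios with quantile normalization, 3 with median-of-ratios scaling, 17 with *Gapdh*, 2 without the rRNA-like reads and 0 with a pseudocount, none of them past 2-fold. The number of genes past 2-fold higher at day 5 in shNFIB was 2 and became 1 with a pseudocount of 1, and the number lower was 1 and became 2 with *Gapdh*. Against shControl at day 0, the number higher in shKDM4D went from 1 to 0 with either pseudocount. In shNFIB it went from 1 to 0 with either and to 4 with *Gapdh*, and in shMLL1 from 2 to 1 with a pseudocount of 1 and to 1 with *Gapdh*. At day 5 the number lower in shNFIB went from 2 to 1 with a pseudocount of 1. A pseudocount shrinks ratios of low genes by construction. *Gapdh* itself differed between libraries by log2 ratios of -0.64 to 0.56, and which scale is right was not tested. Of 140 list counts, 40 moved by over 1.5 times as a ratio to *Gapdh*, 32 without the filter, 22 with a pseudocount of 1, 13 with quantile normalization, 7 with median-of-ratios scaling, 4 with a pseudocount of 0.1 and 0 with an RPKM over 2. Depth limits *Fos* and *Fosb* at day 0 and *Kdm4d*, with 20 reads or fewer each. It also limits single values of other named genes. *Thy1* had 1 read in shKDM4D and 1 in shNFIB at day 0, and *Mmp3* had 2 in shMLL1 at day 0. *Il6* had 3 and 4 reads in shControl at days 0 and 5. At day 0 *Atf3* had 9 reads in shNFIB, and *Arc* had 12 in shKDM4D and 14 in shNFIB.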
